A study of Mus musculus with 2 samples.

Results

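Intergenic open regions that lay between 20 and 200 kb from the nearest protein-coding 5′ end were described in megakaryocytes, the large marrow cells from which platelets form, taken from mice as primary cells. Chromatin accessibility had been measured by ATAC-seq, an assay that uses a transposase to tag DNA open to it for sequencing. The series held 1 group, with no other cell type: 2 biological replicates of cells from adult male C57BL/6J mice, 5 to 6 weeks old, with no treatment named, with 50000 cells each. The labels give separate biosamples but the same donor record for both, name sequencers for replicate 2 alone, and do not say how the cells were isolated. Peaks that overlapped within a replicate were merged, and a shared region was the union of merged regions that overlapped between replicates by at least 1 bp on chromosomes 1 to 19. A shared region was kept where its strongest summit, the position of highest signal, lay in no GENCODE M21 gene body, over 1 kb from every transcript start, and 20 to 200 kb from the nearest coding 5′ end. These criteria used position alone. They kept 10654 of 67991 shared regions (15.7%).

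Regulatory DNA far from genes includes enhancers, which bind transcription factors and act on promoters over a distance, and boundary elements bound by CTCF, a zinc finger protein that helps fold chromosomes into loops. In megakaryocytes, GATA1, FLI1 and other ETS factors, RUNX1 and the NF-E2 complex are known regulators of platelet genes. PU.1, an ETS factor, and C/EBP factors are best known for directing myeloid cells such as macrophages and neutrophils. The gene nearest to a region is a label of position and need not be the gene it acts on.

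Sequences from the reference genome (mm10, plus strand, from RefSeq, 101 bases centred on the summit) are shown so that the motifs counted below can be seen in their setting, with motif matches in capitals. The first 4 are the strongest regions near a listed blood transcription factor or platelet gene that carry a GATA, ETS, RUNX or AP-1/NF-E2 match within 50 bp of the summit, with under 10% repeat-masked bases. That of Mef2c, a MADS-box factor gene, lay at chr13:83344773-83344873, and that of Erg, an ETS factor gene, at chr16:95612146-95612246. That of Gata2, a gene for a stem and progenitor cell factor, lay at chr6:88166192-88166292, and that of Bach1, which encodes a haem-sensing repressor, at chr16:87653110-87653210. All 4 were upstream of the gene named.
Mef2c: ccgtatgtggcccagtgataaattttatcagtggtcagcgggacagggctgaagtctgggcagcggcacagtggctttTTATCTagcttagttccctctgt
Erg: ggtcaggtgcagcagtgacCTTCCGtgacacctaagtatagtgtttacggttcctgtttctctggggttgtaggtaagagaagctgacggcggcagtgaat
Gata2: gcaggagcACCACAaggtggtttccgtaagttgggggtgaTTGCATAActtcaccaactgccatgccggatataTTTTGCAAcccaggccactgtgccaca
Bach1: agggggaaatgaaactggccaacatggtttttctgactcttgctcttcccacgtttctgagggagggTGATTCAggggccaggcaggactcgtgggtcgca

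The GATA match of the Mef2c region reads TTATCT on the printed strand, the reverse of AGATAA on the other. Its fold enrichment, the height of a peak over its local background as the authors' caller gave it, was 4.73 in replicate 1 and 5.98 in replicate 2, 159 kb from the 5′ end. The Erg region had 7.60 and 10.2, 25.6 kb away. The Gata2 region, the single member nearest to that gene, had 9.83 and 11.8, 27.6 kb away. Its printed bases hold 1 RUNX and 2 C/EBP matches, and a PU.1 match lies within 100 bp of the summit, outside them. The Bach1 region had 5.46 and 8.03, 45.8 kb away. At all 4, replicate 2 was the higher. The Mef2c region was absent from the conservative list of the series, called on pooled samples with the irreproducible discovery rate (IDR), a measure of agreement between replicates, and the other 3 were in it.

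A second set, chosen after values were seen, shows the strongest regions under the same limits on position and masking with a PU.1, C/EBP or CTCF match within 50 bp of the summit. They lay upstream of Ctla4, an inhibitory T cell receptor gene (chr1:60852507-60852607, 34.4 kb away), of Actr2, which encodes a subunit of the actin-nucleating ARP2/3 complex (chr11:20133094-20133194, 20.2 kb away), and of Rag2, a gene of antigen receptor recombination (chr2:101472891-101472991, 152 kb away).
Ctla4: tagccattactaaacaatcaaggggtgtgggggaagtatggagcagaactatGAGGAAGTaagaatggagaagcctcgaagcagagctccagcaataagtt
Actr2: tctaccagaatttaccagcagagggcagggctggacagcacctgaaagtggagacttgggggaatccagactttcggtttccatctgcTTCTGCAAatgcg
Rag2: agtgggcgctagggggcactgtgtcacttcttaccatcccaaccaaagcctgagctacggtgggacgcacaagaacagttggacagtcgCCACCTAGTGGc

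The Ctla4 region had a fold enrichment of 17.7 in replicate 1 and 16.5 in replicate 2, with GAGGAAGT close to the centre. The Actr2 region had 19.75 and 18.97. The Rag2 region had 19.9 and 21.1. All 3 lay above the interquartile range of the members in both replicates.

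A further set, also chosen after values were seen, shows the strongest region at 5 genes described below. They lay downstream of Trib1 (chr15:59728270-59728370) and of Cxcr4 (chr1:128540354-128540454), and upstream of P2ry1 (chr3:60929126-60929226), Zeb2 (chr2:45262067-45262167) and Cd163 (chr6:124273377-124273477).
Trib1: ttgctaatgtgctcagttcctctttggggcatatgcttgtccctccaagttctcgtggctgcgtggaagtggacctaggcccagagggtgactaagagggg
Cxcr4: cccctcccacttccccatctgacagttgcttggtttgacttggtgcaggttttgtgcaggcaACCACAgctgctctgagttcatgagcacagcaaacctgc
P2ry1: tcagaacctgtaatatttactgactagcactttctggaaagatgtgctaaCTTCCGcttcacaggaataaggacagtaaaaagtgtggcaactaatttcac
Zeb2: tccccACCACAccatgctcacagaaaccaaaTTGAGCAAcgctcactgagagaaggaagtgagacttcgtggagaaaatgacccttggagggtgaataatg
Cd163: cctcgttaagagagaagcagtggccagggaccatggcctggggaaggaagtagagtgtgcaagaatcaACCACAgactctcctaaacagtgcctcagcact

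The Trib1 sequence holds no match to the 7 motif families counted at each region (GATA, ETS, PU.1, RUNX, AP-1/NF-E2, C/EBP and CTCF). That of Cxcr4 holds a RUNX match, that of P2ry1 an ETS match, that of Zeb2 a RUNX and a C/EBP match and that of Cd163 a RUNX match. The RUNX match reads ACCACA on the printed strand in each case.

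Members were of middling strength among open regions. Their median fold enrichment was 7.11 in replicate 1 (interquartile range 5.29 to 9.85) and 7.80 in replicate 2 (5.796 to 10.55). All shared regions had medians of 7.29 and 7.71, and shared regions within 1 kb of a transcript start 9.04 and 9.05. The mean of both replicates ran from 2.26 to 26.2 over the members, and 2338 of them (21.9%) reached 10 in both, against 24.98% of all shared regions. Regions between genes 1 to 20 kb from a coding 5′ end had medians of 6.97 and 7.41, so the members' median was higher by 0.14 in replicate 1 and by 0.40 in replicate 2. Both replicates had the same sign, and the exact two-sided sign-flip permutation test over the 2 samples gave p = 0.5, the smallest it can give. No test over samples can therefore pass a threshold here, and the comparisons below are descriptions. The files hold peaks and no read counts, so depth is unknown and could limit which weak regions were found.

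The replicates ranked the members much alike. Over the 10654 regions, which are not independent samples and share both libraries, Spearman's rho was 0.905 and Pearson's r 0.924. Of the members, 95.1% lay within 1.5-fold between replicates. Those more than 1.5-fold higher in replicate 2 numbered 494 (4.64%, against 3.22% of all shared regions), and those as much higher in replicate 1 numbered 24 (0.225%, against 0.306%). The median log2 ratio of replicate 2 to replicate 1 was 0.10 at members, 0.05 at all shared regions and -0.02 at promoters. No scaling between the samples is stated, so the direction of this shift rests on the values as deposited. By the log2 ratio, the widest gaps in each direction were at a region near Vegfc, a lymphatic growth factor gene (10.1 in replicate 1 and 4.94 in replicate 2), and at one near Chl1, a neural adhesion gene (3.26 and 7.68).

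**Figure D1:**
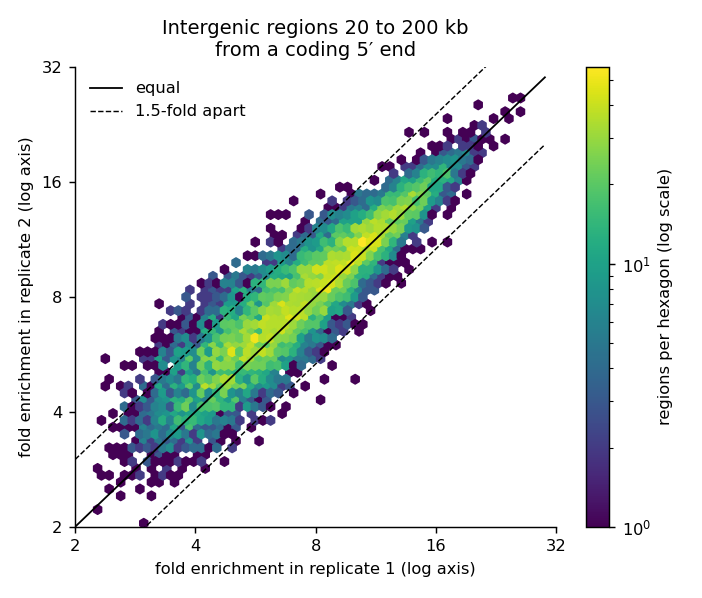
Fold enrichment of each of the 10654 members in replicate 1 (x axis) and replicate 2 (y axis), both log axes, with the number of regions per hexagon as colour on a log scale; lines mark equal values and 1.5-fold differences. Of the points, 95.1% lie between the dashed lines, and those outside are mostly above the upper line.

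Before sharing was required, replicate 1 had 12354 merged regions in this class and replicate 2 had 12716. Of these, 88.1% and 84.5% overlapped a region of the other replicate, against 89.3% and 86.2% for all merged regions. Those without a partner were weaker, with medians of 4.03 and 4.39. The conservative IDR list held 8541 members (80.2%), against 82.9% of all shared regions, and the IDR lists of both samples held 5049 (47.4%), against 53.3%. Members had a median width of 434 bp, against 462 bp for all shared regions and 404 bp for intergenic regions 1 to 20 kb away, and a median GC content of 48.8% in the 201 bases around the summit, against 44.8% in windows 1 kb away. In 11.3% of members those 201 bases held no CpG, against 8.54% of all shared regions.

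Density was lower with each step away from a coding 5′ end. Members numbered 21.2 per Mb of the 503 Mb of sequence that met the same position criteria. The density was 37.3 per Mb from 1 to 20 kb, 3.77 per Mb beyond 200 kb and 28.4 per Mb over all classes. Within the members it was 32.9 per Mb at 20 to 30 kb (2358 regions), 22.5 at 50 to 75 kb (1962 regions) and 11.5 at 150 to 200 kb (876 regions). Strength hardly moved over the same span: the medians were 7.40 and 8.03 in replicates 1 and 2 at 20 to 30 kb, and 6.95 and 7.67 at 150 to 200 kb. Across chromosomes the density ran from 17.3 per Mb on chromosome 14 to 27.9 on chromosome 10. Upstream regions numbered 6625 (62.2%), against 81.5% at 1 to 20 kb, 50.2% beyond 200 kb and 45.1% of all shared regions. The criteria leave out gene bodies, which lie downstream of their own 5′ ends. The upstream share of the eligible sequence was not counted.

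**Figure D2:**
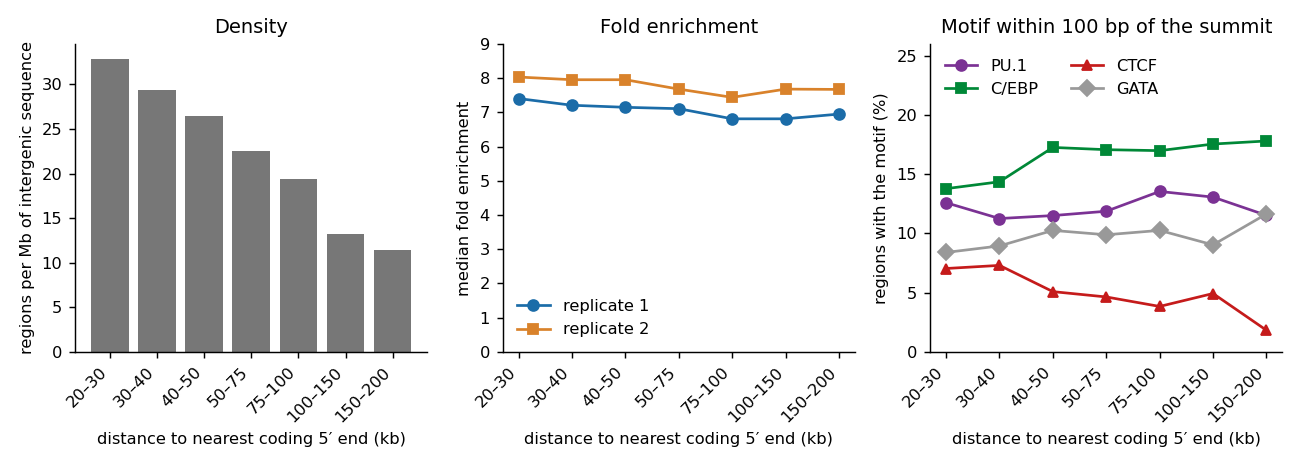
Density (bars, regions per Mb of eligible intergenic sequence), median fold enrichment in each replicate, and share of regions with a motif, by distance to the nearest coding 5′ end in kb. Density declines from 32.9 to 11.5 per Mb, and median fold enrichment stays between 6.81 and 8.03. The CTCF share is 7.04% in the nearest bin and 1.83% in the farthest, and rises between some neighbouring bins.

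Medians were close on both sides of the 20 kb limit and higher outside than inside the 200 kb limit. At 20 to 21 kb the 294 members had medians of 7.35 and 8.05, and at 19 to 20 kb the 279 regions just outside had 7.29 and 7.88. At 190 to 200 kb the 139 members had 6.18 and 7.13, and at 200 to 210 kb the 123 regions outside had 7.48 and 8.50. Single members at the limits included a region 20001 bp from Ifitm3, an antiviral membrane protein gene (9.67 and 9.79), and one 199892 bp from Tgfb2, a TGF-beta ligand gene (5.59 and 6.25). Just outside were a region 19999 bp from Hif1an, an oxygen sensor gene (14.4 and 13.2), and one 200144 bp from Stard3nl, an endosomal sterol-binding protein gene (12.7 and 14.4).

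The PU.1 motif stood out at the summits. Motifs were searched on both strands in the 201 bases around the summit, and the same width 1 kb to each side gave the background. GAGGAAGT, the PU.1 motif, was in 1302 members (12.2%), in 1.38% of background windows and in 10.2% of all shared regions, a ratio of 8.83 over background. The share was 10.8% at 1 to 20 kb, 14.6% beyond 200 kb, 12.1% in gene bodies and 5.47% at promoters. Counts of matches in bins of 20 bp were 25.5 per 1000 regions within 20 bp of the summit and 1.74 at 400 to 500 bp. Members with the motif had medians of 7.17 and 8.10, and those without 7.11 and 7.72. The ETS word CGGAAG, which shares GGAAG with the PU.1 motif but cannot match at the same place, was in 6.97% of members, 2.83% of background windows and 11.1% of all shared regions. PU.1 is itself an ETS factor, and neither word tells which ETS factor binds.

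CTCF had the largest ratio of the 27 motifs. Its motif was in 569 members (5.34%), in 0.15% of background windows and in 4.63% of all shared regions, a ratio of 35.6. Members with it had medians of 8.42 and 8.68, against 7.08 and 7.71 without. Its share was 7.04% at 20 to 30 kb and 1.83% at 150 to 200 kb, and did not fall at each step between. It was 7.30% at 30 to 40 kb, 3.84% at 75 to 100 kb and 4.93% at 100 to 150 kb. Outside the members it was 7.33% at intergenic regions 1 to 20 kb away and 3.32% beyond 200 kb. Median GC content was 49.8% at 20 to 30 kb and 47.3% at 150 to 200 kb, and its part in the motif shares was not tested.

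Motifs of RUNX, C/EBP and AP-1 were also more frequent at summits than beside them. The RUNX word TGTGGT was in 25.6% of members and 15.5% of background windows, and in 22.0% of all shared regions. The C/EBP word TTGCNNAA was in 16.1% and 8.64% (13.4% of all shared regions), and was in 13.8% of members at 20 to 30 kb and 17.8% at 150 to 200 kb. The AP-1/NF-E2 word TGANTCA was in 11% and 6.34% (9.20% of all shared regions), and the longer NF-E2 word GCTGANTCA, which contains it, in 2.43% and 0.81% (2.17%). Words of the same letters in reverse order were counted as controls in members and background windows. They gave 13.7% and 13.4% for RUNX, 5.42% and 5.00% for AP-1, and 12.7% and 10.8% for ETS. The ETS control GAAGGC lacks the CpG of CGGAAG, which was in 2.83% of background windows, so it is not matched for CpG. No such control was counted for PU.1 or C/EBP. SP1 sites (GGGCGG), which also hold a CpG, were in 7.27% of members and 2.75% of background windows. They were in 18.2% of all shared regions and 46.3% of promoter regions.

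The GATA word AGATAA did not follow this pattern. It was in 1016 members (9.54%), in 11.5% of background windows and in 7.88% of all shared regions, a ratio of 0.83. The AGATAA share was 8.84% at 1 to 20 kb, 10.1% beyond 200 kb, 9.17% in gene bodies and 4.44% at promoters. The reversed-letter control AATAGA was in 8.39% of members and 10.98% of background windows, a ratio of 0.76. Within 20 bp of the summit there were 8.03 matches per 1000 regions and bin, against 11.9 at 400 to 500 bp. The direction depended on the word, since AGATAAG was in 3.26% of members and 2.84% of background windows, and TGATAA in 6.73% and 9.90%; both words were added after the data were seen. Members with AGATAA had medians of 6.52 and 7.22, against 7.19 and 7.90 without. Median GC content was 48.8% around the summits and 44.8% in the windows 1 kb away, and its part in these shares was not tested. The word count says how often these letters occur and nothing of where the factor binds.

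**Figure D3:**
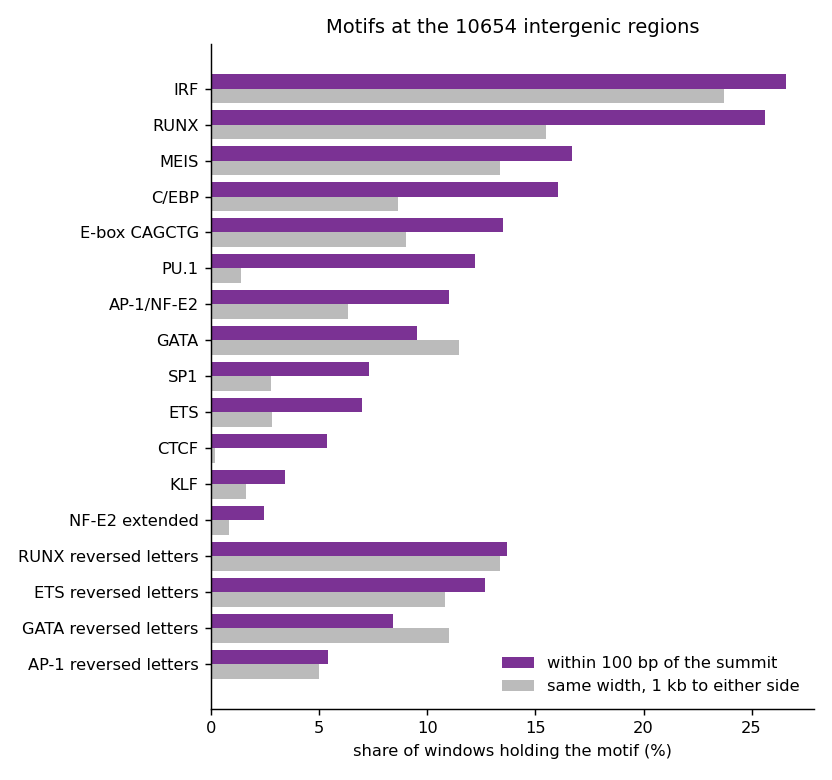
Share of windows (x axis, percent) that hold each motif within 100 bp of a member's summit (purple) and in windows of the same width 1 kb to either side (grey), with reversed-letter control words at the bottom. PU.1 is at 12.2% and 1.38% and CTCF at 5.34% and 0.15%, while GATA is at 9.54% and 11.5%.

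**Figure D4:**
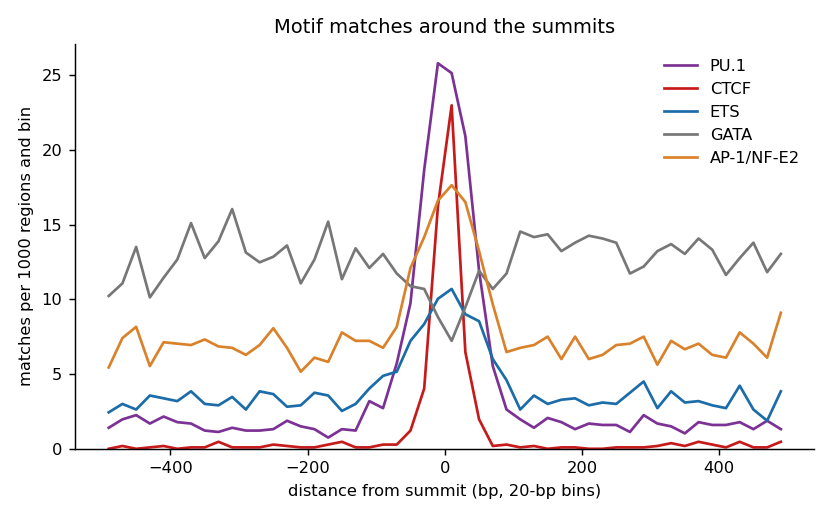
Motif matches per 1000 members and 20-bp bin (y axis) against distance from the summit in bp (x axis). PU.1 and CTCF rise to a narrow peak at the summit, with 25.5 and 19.6 matches within 20 bp of it, AP-1/NF-E2 has 17.1 and ETS 10.4, and GATA dips to 8.03.

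Matches of several families met in some regions. Of PU.1, C/EBP, RUNX and AP-1/NF-E2, none was found in 5104 members (47.9%), 1 in 4303, 2 in 1128, 3 in 118 and all 4 in 1. Members with none had medians of 7.11 and 7.68, and those with 3 had 8.03 and 8.27.

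Members were spread unevenly over genes. Of 20780 coding genes, 9485 were nearest to any eligible sequence, and 3701 (17.8% of all) were nearest to at least 1 member. The 654 genes with 5 or more held 5068 members (47.6%), and the 129 with 10 or more held 1697 (15.9%). The nearest gene had an open promoter, a shared region within 500 bp of one of its transcript starts, for 8365 members (78.5%). Of all coding genes 60.6% had one, and genes with one were nearest to 53.2% of the eligible sequence. The density was 31.2 members per Mb near genes with an open promoter and 9.72 near genes without, while strength was close: medians of 7.14 and 7.88 against 6.94 and 7.68. For 7560 members (71.0%) the nearest transcript start of any kind was that of a non-coding gene, and for 5040 (47.3%) some start lay within 20 kb.

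Trib1, which encodes a pseudokinase that promotes degradation of C/EBP-alpha, was nearest to 30 members, more than any other gene, of which 28 lay downstream, between 25.8 and 183 kb from the 5′ end. Their fold enrichment had a lowest value, median and highest value of 3.22, 7.14 and 13.4 in replicate 1 and of 3.55, 7.86 and 13.2 in replicate 2. The ranges of both replicates overlapped, and 29 of the 30 were within 1.5-fold. A PU.1 match was at 3 of the regions, RUNX at 7, C/EBP at 6, ETS at 5 and GATA at 1. Over all members the shares, in the same order, were 12.2%, 25.6%, 16.1%, 6.97% and 9.54%.

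Cxcr4, the receptor for the chemokine CXCL12 that holds blood cells in the marrow, was nearest to 26 members, 18 of them upstream. The lowest value, median and highest value were 2.35, 7.78 and 16.1 in replicate 1 and 2.71, 9.05 and 16.4 in replicate 2. Replicate 2 was higher at 17 and replicate 1 at 9, and all 26 were within 1.5-fold. RUNX matches were at 9 of them and C/EBP matches at 6, against 25.6% and 16.1% of all members.

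Lmo4, a LIM-only cofactor gene, had 26 members, and Rybp, a Polycomb component gene, 25. Irf2bp2, a transcriptional repressor gene, Zfp217, a zinc finger gene, and Zfp36l2, an mRNA decay factor gene, had 24 each. All 24 at Zfp36l2 lay downstream, and 6 of them held a PU.1 match, against 12.2% of all members. Ado, a thiol dioxygenase gene, had 21 and Btg1, an antiproliferative gene, 20. Next came 6 genes with 19 each: Atp2b1, a calcium pump gene, Marcks, Pik3r1, a PI3-kinase subunit gene, Tbl1xr1, Tent5a and Ubl3. The strongest region of all these genes was at Btg1, with 18.03 in replicate 1 and 18.92 in replicate 2. Of these genes Tbl1xr1 had the most regions with a GATA match, 7 of its 19, against 9.54% of all members.

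**Figure D5:**
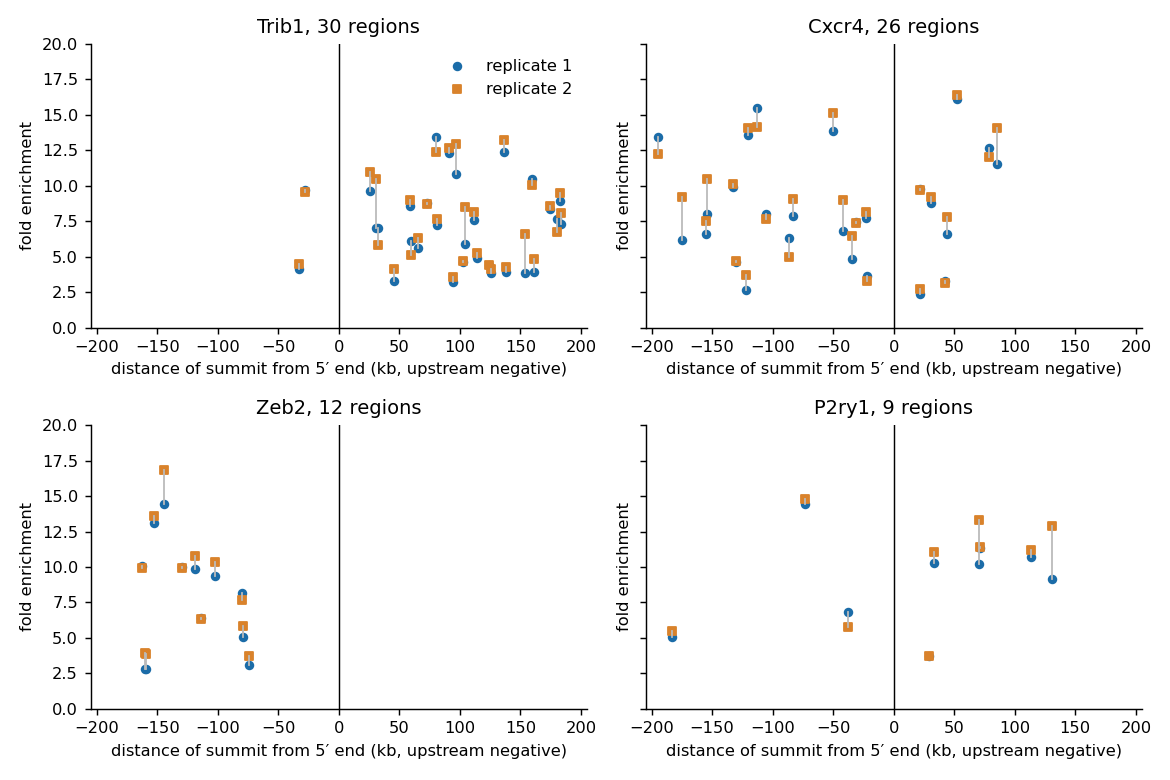
Fold enrichment (y axis) of each member nearest to Trib1, Cxcr4, Zeb2 and P2ry1 in replicate 1 (circles) and replicate 2 (squares), against distance of its summit from the 5′ end in kb (x axis, upstream negative). At Trib1 28 of 30 regions lie downstream, and at Zeb2 all 12 lie upstream.

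Many members lay in runs. With gaps of up to 12.5 kb between neighbouring members joined, 3437 members (32.3%) stood alone, and 1132 clusters of 3 or more held 4765 (44.7%). No such count was made for other classes, for all shared regions or for regions placed at random. Whether members lay in runs more often than their density alone would give was therefore not tested. The longest run by number held 19 members over 80.3 kb on chromosome 18, between Lyzl1, a lysozyme-like gene, and Map3k8, a kinase gene of inflammatory signalling, with medians of 6.61 and 6.69. The next held 17 members over 79.5 kb at Trib1, with medians of 6.07 and 7.64. A run of 12 at Rybp over 82.8 kb was stronger, with medians of 8.93 and 10.3.

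Genes of blood regulation had more members per Mb than coding genes as a whole. Promoters were open at 38 of the 40 blood transcription factor genes and at all 29 cytokine receptor and signalling genes, and the density near any gene with an open promoter was 31.2 per Mb. Of 40 blood transcription factor genes, 23 were nearest to at least 1 member, and their 109 members came to 47.7 per Mb, against 17.8% of genes and 21.2 per Mb over all coding genes. Zeb2, a repressor gene of myeloid and lymphoid development, had 12, all upstream, from 2.81 through a median of 8.79 to 14.4 in replicate 1 and from 3.72 through 8.79 to 16.8 in replicate 2. Klf6, a zinc finger gene, had 12, Runx3, a RUNX factor gene, 11, and Runx1, the RUNX factor gene needed for blood stem cells, 9. The 9 at Runx1 were weak, with medians of 3.81 and 4.66, and 4 of them were in the conservative list. Myb and Cebpa, genes of a progenitor and a myeloid factor, had 3 each, and Fli1, the gene of an ETS factor of megakaryocytes, 2. The strongest at Fli1 had 8.999 and 9.824, 39.2 kb upstream.

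Of 29 genes of cytokine receptors and their signalling, 16 had members, which numbered 108 and came to 71.8 per Mb. Besides Cxcr4 and Pik3r1, Tgfbr2, a TGF-beta receptor gene, had 10, the strongest with 13.5 in replicate 1 and 12.2 in replicate 2, holding PU.1 and RUNX matches. Kit, the stem cell factor receptor gene, had 7, from 3.55 through 9.18 to 13.5 in replicate 1 and from 5.21 through 8.41 to 16.02 in replicate 2. Jak2, the kinase gene downstream of the thrombopoietin receptor, had 5, all upstream, with medians of 12.41 and 11.97.

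Of 40 megakaryocyte and platelet genes, 11 had members, which numbered 30 and came to 18.4 per Mb, a density close to that of all coding genes. Their promoters were open in 26 of 40 genes (65.0%, against 60.6% of all). P2ry1, a platelet ADP receptor gene, had 9, from 3.71 through a median of 10.2 to 14.4 in replicate 1 and from 3.73 through 11.2 to 14.8 in replicate 2. Replicate 2 was higher at 8 of the 9. F13a1, the gene of the clot-stabilising factor XIII subunit, had 9, all upstream, with medians of 8.10 and 8.23. Itga6, a laminin receptor subunit gene, had 2, the stronger with 11.8 and 12.6, 83.4 kb upstream. Vwf, the von Willebrand factor gene, had 2. The one at 20.5 kb had 7.11 in replicate 1 and 6.60 in replicate 2, and the one at 22.5 kb had 6.12 and 5.67. Of the 30, 2 held a GATA match, 3 a PU.1 match and 6 a RUNX match, against 9.54%, 12.2% and 25.6% of all members.

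Genes that mark other cells the preparation could hold also had members. Monocyte and macrophage genes had 28 members at 7 of 22 genes (35.9 per Mb), of which 8 held a PU.1 match, and 17 of the 22 had an open promoter. Over all members 12.2% held a PU.1 match, and of all coding genes 17.8% had a member and 60.6% an open promoter. Ly86, a lymphocyte antigen gene of the innate response, had 10, the strongest with 14.2 in replicate 1 and 15.2 in replicate 2. Cd163, a haemoglobin scavenger receptor gene, had 4, the strongest with 15.7 and 14.4, and Marco, a scavenger receptor gene, 4, the strongest with 8.42 and 11.6, while neither had an open promoter. Neutrophil genes had 7 members at 2 of 22 genes (27.2 per Mb), 6 of them at Il1b, the interleukin-1 beta gene, and 20 of the 22 had an open promoter. These values stand beside the PU.1 and C/EBP shares above, and their part in those shares was not tested.

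Mast cell and basophil genes had 9 members at 3 of 16 genes (69.1 per Mb over 0.13 Mb of eligible sequence), 6 of them at Il1rl1, the interleukin-33 receptor gene, where the strongest had 15.6 and 14.8. Erythroid genes had 13 at 5 of 26 (23.2 per Mb). B cell genes had 12 at 6 of 18, led by Bank1 with 5, and T and NK cell genes had 21 at 9 of 20, led by Icos, Klrb1c and Eomes with 4 each. Endothelial genes had 21 at 6 of 16, led by Kdr, the VEGF receptor gene, with 6, and mesenchymal stromal genes 18 at 8 of 16, led by Dcn and Cxcl12 with 5 each. Density was 21.7 per Mb for B cell, 32.7 for T and NK cell, 24.0 for endothelial and 11.3 for mesenchymal genes. Hepatocyte genes had none at 19 genes, with 0.21 Mb of eligible sequence, and neuronal genes had 1 at 18 genes over 1.06 Mb, near Grin2b, a glutamate receptor subunit gene (9.42 and 10.3). Promoters were open at 43.75% of mast cell and basophil, 76.9% of erythroid, 44.4% of B cell and 60% of T and NK cell genes. The share was 43.75% of endothelial, 25% of mesenchymal, 5.26% of hepatocyte and 22.2% of neuronal genes, against 60.6% of all coding genes.

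The strongest members were near zinc finger, predicted and other genes of varied roles. The highest lay 64.7 kb upstream of Gm21119, a predicted gene, on chromosome 8 (20550028 to 20550597), with 26.1 in replicate 1 and 26.3 in replicate 2. The next were near Zfp960, a zinc finger gene (25.3 and 26.5), Samd9l, an interferon-induced gene (25.5 and 24.6), Trim43b, a TRIM family gene (24.4 and 23.3), and Rpf2, a ribosome biogenesis gene (23.6 and 24.0). At Gm21119, Trim43b, Zfp97 and Igf2bp3 the central 51 bases occurred at 2 places in the chromosomes searched, and at Zfp386 at 3, so reads there may not be placed uniquely.

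The other members of the strongest 20 lay near 6720489N17Rik, Hsf2, Sem1, Diaph3, Ogfrl1, Lonrf1, Bicd1, Akr7a5, Adgrf1, Cpb1, Mboat1 and Rag2. By SD, the widest gap between replicates among the 20 was at Zfp386, with 17.4 and 23.7 (20.6 ± 4.50, SD, n = 2). The narrowest was at Cpb1, a pancreatic carboxypeptidase gene, with 20.7 and 20.8 (20.8 ± 0.047, SD, n = 2). All 20 were in the conservative list and none matched mitochondrial DNA over 100 bases or more, as 2 members did in all. Near Diaph3, a formin gene, the region (20.9 and 22.2) held GATA, PU.1 and C/EBP matches, and near Adgrf1, an adhesion receptor gene, PU.1, RUNX, C/EBP and IRF matches were found (19.6 and 22.1). The IRF word AANNGAAA was in 26.6% of members, 23.7% of background windows and 21.7% of all shared regions.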

How the data were processed

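Peaks were called on mm10, per the labels; the aligner, the caller and their versions are not given in the sources used here. The authors deposited a pseudoreplicated and an IDR-thresholded peak list for each sample and pooled lists for the series. Column 7 of the deposited lists was taken as fold enrichment, a ratio, and column 8 as the −log10 p-value. No read counts were used, so depth is unknown and no interval was computed. Replicates share 1 donor record, so their spread may be technical. Regions were merged, shared, placed on GENCODE M21 and scanned with Python 3.11.15 (numpy 2.4.6, pandas 2.3.3, scipy 1.17.1), tested on simulated data. Mitochondrial matches came from blastn 2.17.0. Of 27 motifs, CTCF, SRF and an E-box/GATA composite are given by name. KLF, SP1, NF-E2 and composite words can overlap others. The 13 gene lists (306 genes) and the members were chosen with earlier results of these data known. Of the listed genes, Alas2, Tf, Syn1 and Dcx were not analysed here. Named were the 20 strongest members, the 10 genes with most members and ties, the leading 3 genes of each list, and regions at the limits; exceptions are stated, and 1 gene that this rule names is not reported here. Alternatives were other lists, overlaps, thresholds, starts, windows, chromosomes and each replicate left out.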

Additional observations from a re-analysis of the deposited data

How the results depend on the processing

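The number of regions was 5050 with the IDR lists of each sample, against 10654, and stayed within 1.5-fold of it under the other settings. With the IDR lists the median fold enrichment was 10.3, the open-promoter share 71.8%, the PU.1 share 12.9% and the GATA share 8.24%; these lists keep fewer and stronger regions. Leaving out 1 replicate gave medians from 6.52 to 7.11, open-promoter shares from 78.9% to 80.1%, PU.1 shares from 11.68% to 12.01% and GATA shares from 9.65% to 9.70%, with 12354 to 12716 regions. The difference in median to regions 1 to 20 kb away kept its sign in each setting, from 0.039 without replicate 2 to 0.67 with the IDR lists. The median of −log10 p in place of fold enrichment was 22.4. The open-promoter share was 76.0% with 50% reciprocal overlap, 76.2% for a fold enrichment of at least 4 and 72.4% with the 5′ end as the only start. The PU.1 share was 12.5% with the start of any coding transcript, 12.6% with bodies of coding genes only, 9.66% within 50 bp and 10.2% in windows under 10% masked. The GATA share was 9.64%, 9.42%, 4.20% and 10.1% in the same order, 9.25% at a fold enrichment of at least 4, 9.34% at the summits of replicate 1, and 3.26% and 6.73% with the added words AGATAAG and TGATAA. Centring the log2 ratios put 96.2% of members within 1.5-fold. The cause of these shifts was not tested. Of 87 values for the other motifs, the named genes and the background windows under alternatives, 42 moved by more than the spread between replicates (for gene counts and ratios, more than 1.5-fold). No paired analysis was possible because there is 1 group. Unknown depth limits all counts, and a region found in 1 replicate only may have been missed in the other.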
